A study of Mus musculus with 127 samples.

Results

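Windows of 10 kb located in nearly every one of 10 mouse embryonic stem cell nuclei were set against windows located in none of them. Each window of chromosomes 1 to 19, from 3 Mb to the last located window of the chromosome, was given the number of nuclei that list it in either of their 2 files of positions. The windows counted in 9 or 10 nuclei, called members here, numbered 11186 of 240384 (4.65%), with 8206 in 9 nuclei and 2980 in all 10. The windows counted in 0 nuclei numbered 9491 (3.95%). Just outside these limits lay 10012 windows in 8 nuclei and 26025 windows in 1 nucleus. Both classes were chosen by this measured count of nuclei, so the number, chromosomes, clustering, gene content and chromosome-end position of the classes are described without a test.

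The nuclei came from F123 cells, embryonic stem cells of the hybrid strain CAST x 129, grown with LIF and passaged off their feeder cells, with no further treatment. Each nucleus was sliced in series, and the DNA of every slice, called a nuclear profile, was amplified across the whole genome and sequenced, giving 122 profiles of 10 nuclei. Batch B18F held 6 nuclei (Cell25, Cell26, Cell27, Cell28, Cell38 and Cell39) and batch B16F held 4 (Cell17, Cell18, Cell19 and Cell20), where the batch is the prefix of the sample titles. The 5 control samples have no file of positions and were not used. The line is 1 hybrid genotype, and nothing in the labels says that the nuclei came from separate cultures, so the p-values measure the spread between these nuclei.

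In genome architecture mapping, a locus is seen in a slice when its DNA was cut into that slice, amplified and sequenced, and loci that lie near each other in the nucleus tend to fall into the same slices. A diploid nucleus holds each autosomal locus on a maternal and a paternal chromosome, which may lie in different slices. A window can be placed only where reads align to it, and stretches with many near-identical copies, or with undetermined bases in the reference assembly, are places where short reads are known to be hard to assign. Mouse autosomes carry their centromere at the end where the numbering begins, so the first megabases of a chromosome are its pericentromeric end.

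The promoters below, 300 bases from 250 before to 50 after a transcript start, were taken from RefSeq (assembly GRCm38.p6, the same assembly as mm10) for the 3 genes with most windows of each class whose start lies in a window of that class. Capitals mark bases inside a stretch of 50 or more bases that also occurs, on either strand, in a promoter of another 10 kb window, a feature counted over all promoters below and present in 2 of these 6. A gene can have further starts in other windows.
The first 3 start in member windows.
Fam172a (chr13:77708440-77708739, + strand): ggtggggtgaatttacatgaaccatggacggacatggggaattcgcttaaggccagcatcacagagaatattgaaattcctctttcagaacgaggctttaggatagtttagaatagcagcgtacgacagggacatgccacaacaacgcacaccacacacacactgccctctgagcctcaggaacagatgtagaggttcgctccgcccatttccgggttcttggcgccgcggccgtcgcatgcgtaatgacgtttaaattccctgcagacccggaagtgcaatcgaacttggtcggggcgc
Etl4 (chr2:20509797-20510096, + strand): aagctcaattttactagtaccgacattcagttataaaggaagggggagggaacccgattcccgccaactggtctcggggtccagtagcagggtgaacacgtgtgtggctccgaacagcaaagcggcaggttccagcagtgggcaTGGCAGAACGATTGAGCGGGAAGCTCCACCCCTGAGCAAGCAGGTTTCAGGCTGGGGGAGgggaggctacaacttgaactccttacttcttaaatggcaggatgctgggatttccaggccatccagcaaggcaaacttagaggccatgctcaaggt
Gm3194 (chr14:5460361-5460660, - strand): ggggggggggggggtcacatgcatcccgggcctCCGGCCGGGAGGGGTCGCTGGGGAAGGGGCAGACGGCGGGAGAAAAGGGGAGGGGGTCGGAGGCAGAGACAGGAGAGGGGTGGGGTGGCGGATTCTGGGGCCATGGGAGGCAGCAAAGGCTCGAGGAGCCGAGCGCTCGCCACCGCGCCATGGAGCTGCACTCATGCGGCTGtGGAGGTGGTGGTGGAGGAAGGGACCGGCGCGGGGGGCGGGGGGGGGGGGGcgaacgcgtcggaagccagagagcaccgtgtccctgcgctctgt
The last 3 start in windows located in 0 nuclei.
Lingo2 (chr4:36718914-36719213, - strand): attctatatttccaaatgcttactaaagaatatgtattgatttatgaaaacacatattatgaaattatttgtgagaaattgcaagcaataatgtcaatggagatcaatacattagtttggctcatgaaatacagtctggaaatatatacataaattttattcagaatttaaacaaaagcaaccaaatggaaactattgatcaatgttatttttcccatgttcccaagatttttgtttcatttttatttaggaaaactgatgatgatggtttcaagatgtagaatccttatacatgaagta
Robo1 (chr16:72662899-72663198, + strand): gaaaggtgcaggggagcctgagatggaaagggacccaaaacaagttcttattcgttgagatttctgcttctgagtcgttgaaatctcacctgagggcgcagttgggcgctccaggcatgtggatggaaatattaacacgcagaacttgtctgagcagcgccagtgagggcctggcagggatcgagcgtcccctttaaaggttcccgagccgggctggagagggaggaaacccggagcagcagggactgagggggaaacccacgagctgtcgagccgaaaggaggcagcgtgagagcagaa
Agbl1 (chr7:76229637-76229936, + strand): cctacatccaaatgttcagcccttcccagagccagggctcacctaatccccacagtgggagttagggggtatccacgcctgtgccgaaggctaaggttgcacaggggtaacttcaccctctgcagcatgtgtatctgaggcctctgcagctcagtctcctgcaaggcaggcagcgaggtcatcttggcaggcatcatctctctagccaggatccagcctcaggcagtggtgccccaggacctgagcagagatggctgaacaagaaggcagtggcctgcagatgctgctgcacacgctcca
The Gm3194 promoter had 222 of its 300 bases in such stretches, and the 9 other windows that share them were all on 1 chromosome. Of these windows 6 were members and the other 3 were located in 8 nuclei. The Etl4 promoter had 60 such bases, shared with 1 window that was located in 3 nuclei. The promoters of Fam172a, Lingo2, Robo1 and Agbl1 had none. The start windows of all 3 member genes were located in 9 nuclei, missed by Cell28 for Fam172a, by Cell20 for Etl4 and by Cell39 for Gm3194.

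Both classes were larger than the nuclei's coverage gives. A nucleus located between 19.5% (Cell39) and 53.2% (Cell25) of the windows, with a median of 39.5% and a mean of 38.4% ± 10.1 (SD, n = 10). If each nucleus had located its share of windows independently of the others, 225 windows would have been in 9 or 10 nuclei and 1677 in none. The members were thus 49.8 times and the never-located windows 5.66 times the expected number. With any 1 nucleus left out and 8 or 9 of the other 9 required, the member ratio was lower, from 18.3 without Cell20 to 29.7 without Cell38, over classes of 11481 to 17170 windows, and the never-located ratio was 3.82 to 4.99. The excess was steepest at the top, where 2980 windows were in all 10 nuclei against 11.7 expected, and 8 nuclei already held 10012 windows against 1693 expected. In between, the windows in 3, 4, 5 and 6 nuclei were fewer than expected. With the coverage of each nucleus taken per chromosome, the ratios were 47.2 for members and 5.49 for never-located windows. Read counts are not part of the lists, so depth per window is unknown.

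**Figure D1:**
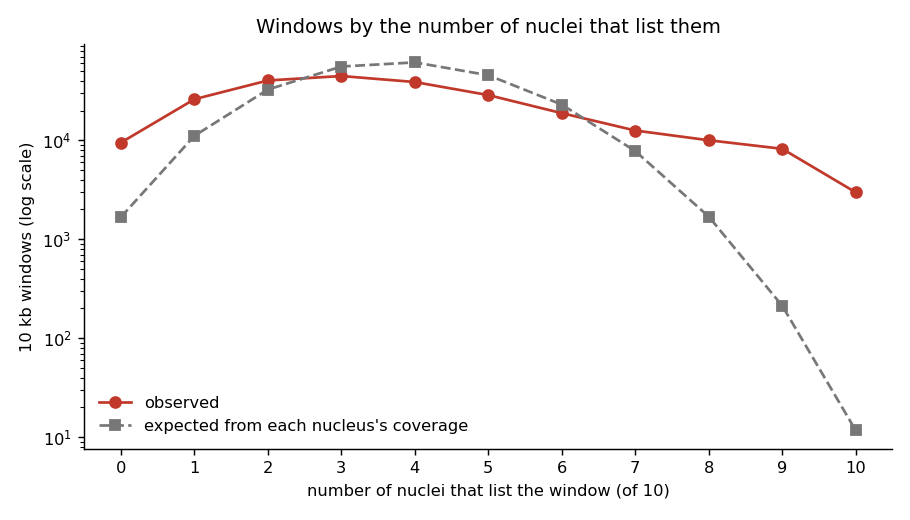
Number of 10 kb windows of chromosomes 1 to 19 (log scale) by the number of nuclei that list them, observed (circles) and expected from each nucleus's coverage if nuclei were independent (squares). The observed counts lie above the expected ones at 0, 1 and 2 nuclei and from 7 nuclei up, and below them from 3 to 6 nuclei.

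Cell38 and Cell39 stood apart from the other nuclei. A nucleus listed between 62.7% (Cell38) and 99.7% (Cell25) of the members, with 79.8% in Cell39 and at least 95.2% in each of the other 8. Of the 8206 windows in exactly 9 nuclei, Cell38 was the missing nucleus in 50.9% (10.2% under independence) and Cell39 in 27.6% (22.7% under independence). Without Cell38 and Cell39, 23620 windows were in 7 or 8 of the 8 other nuclei, 10.5 times the expected number.

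The members rested largely on entries that lie between slice positions. Slice positions of a nucleus are spaced by 0.2 units of the slicing axis (the files give the unit no name), and the other entries fall between these grid points. Of the listings of a member by a nucleus, 53.2% were by between-grid entries alone, against 24.5% over all located windows. No such listing was found for 87 of the 11186 members (0.78%), 4.89% of windows in 8 nuclei and 51.3% of all located windows. A window with more listings has more chances to hold such a listing, so these shares depend in part on the number of nuclei. When only grid positions counted as located, 131 windows were in 9 or 10 nuclei, 6.23 times the expected number, and these were spread over the chromosomes with 1 to 12 on each. The never-located windows then numbered 13801, 1.84 times the expected number. How an entry comes to lie between grid positions is not given in the sources used here.

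The share of between-grid entries was also measured within each nucleus. The members a nucleus lists are the windows it lists that at least 8 of the other 9 nuclei list too, so its own positions had no part in choosing among the windows it lists, although such entries of the other nuclei counted. The share was 53.7% ± 18.9 of the entries of members, against 26.9% ± 6.94 of the entries of all windows (SD, n = 10 nuclei). The nuclei ran from 12.6% (Cell39) through a median of 55.8% to 74.7% (Cell25) for members, and from 11.5% (Cell39) through a median of 28.1% to 37.1% (Cell38) for all windows. The difference was 26.8 ± 16.7 percentage points, higher for members in 9 of 10 nuclei (exact sign-flip p = 0.00586, adjusted p = 0.00879 over 12 tests). Cell38 went the other way by -5.78 points and Cell39 differed by 1.1 points, while the other 8 nuclei differed by at least 23.8 points. In batch B18F alone, which holds both of these nuclei, the difference was 22.3 points (exact sign-flip p = 0.0938). The share was higher at each successive number of nuclei, with 13.6% ± 7.44 for windows in 1 nucleus and 57.5% ± 20.2 for windows in 10.

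Members that were in both files of a nucleus seldom had the same position there. Among windows in both files, positions were identical (within 1e-06 axis units) for 17.1% ± 16.1 of the members, against 49.2% ± 15.5 of all such windows (SD, n = 10). The share of members ran from 5.68% (Cell25) through a median of 12.2% to 60.2% (Cell39), and the share of all windows from 13% (Cell38) through a median of 52.7% to 66.8% (Cell39). It was lower for members in 10 of 10 nuclei, by 32.1 ± 16.2 points on average (exact sign-flip p = 0.00195, the smallest that 10 nuclei can give, adjusted p = 0.00335). The comparison was not repeated with grid positions alone. It can therefore not be told apart from the larger share of between-grid entries among members. Cell38 differed by -0.30 points and Cell39 by -6.62 points.

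Members were also less often in both files at once. Of the members a nucleus located, 12.4% ± 5.11 were in both files, against 21.1% ± 8.32 of all located windows (SD, n = 10). The difference was -8.61 ± 4.68 points and negative in 10 of 10 nuclei, from -15.6 in Cell25 to -1.33 in Cell20 (exact sign-flip p = 0.00195, adjusted p = 0.00335). Members in runs of 5 or more neighbouring windows were in both files in 19.6% ± 7.89 of cases, and members with no member beside them in 12.3% ± 5.25.

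Adjacent windows lay farther apart along the axis where 1 of them was a member. Between neighbouring windows listed in the same file, the mean distance was 21.4% ± 4.61 of the sampled axis for pairs with a member, against 18.5% ± 4.85 for pairs without one (SD, n = 10). The distance of pairs with a member ran from 12.5% (Cell39) through a median of 22.9% to 27.1% (Cell38), and that of the other pairs from 11.2% (Cell39) through 19.9% to 24.7% (Cell38). The groups overlapped across nuclei, but within a nucleus the pairs with a member were farther apart in 10 of 10, by 2.91 ± 1.73 points (exact sign-flip p = 0.00195, adjusted p = 0.00335). In Cell18 the difference was 0.03 points.

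**Figure D2:**
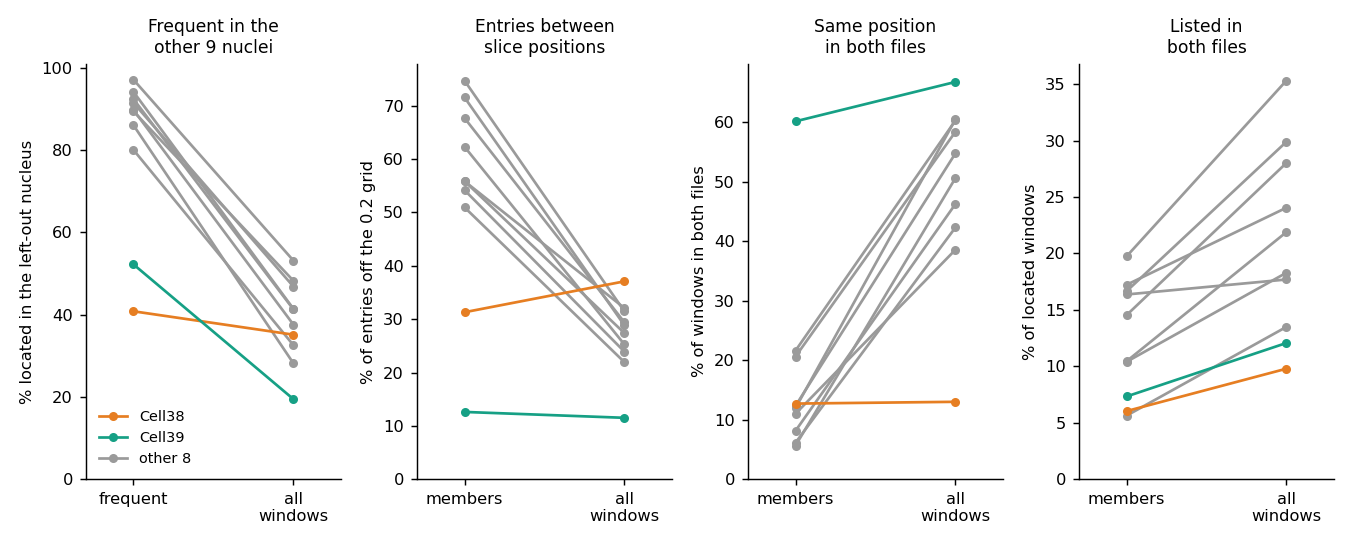
Per-nucleus percentages, frequent or member windows on the left of each panel and all windows on the right, with a line per nucleus (Cell38 orange, Cell39 green, the other 8 grey). From left to right the panels give the share of windows located in a nucleus left out when the windows were chosen, the share of entries between grid positions, the share with 1 position in both files among windows in both, and the share of located windows that are in both files. Within every panel the 8 grey nuclei move the same way, and Cell38 is nearly flat in the first and the third.

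Neither the distance from the midpoint of the axis nor the share at the fullest slice passed the test over all 10 nuclei. Distance from the midpoint was ranked within each nucleus as a percentile, low values being near the midpoint. The mean percentile of members was 45.1 ± 6.73 with 50 for all windows (SD, n = 10), lower in 7 of 10 nuclei (exact sign-flip p = 0.0527, adjusted p = 0.0633). Cell25 was lowest at 37.5 and Cell39 highest at 58. With grid positions alone the difference was -1.21 percentile points, below 0 in 6 of 10 nuclei (exact sign-flip p = 0.396), against -4.87 with all entries. The share of entries at the fullest slice position was 17.9% ± 21.2 for members and 22.3% ± 14.3 for all windows, lower in 9 of 10 nuclei (exact sign-flip p = 0.115). Cell39 was the exception, with 72.7% of its member entries there against 56.8% of all its entries. Without Cell39 both differences passed, at -5.60 percentile points (exact sign-flip p = 0.0156) and -5.79 percentage points (exact sign-flip p = 0.0117).

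Windows frequent in 9 nuclei were frequent in the nucleus left out. For each nucleus, the windows that at least 8 of the other 9 nuclei list were chosen without it and then looked up in it. They were located there at a rate of 81.4% ± 19.1, against 38.4% ± 10.1 for all windows (SD, n = 10). The rate of the frequent windows ran from 40.8% (Cell38) through a median of 89.6% to 97.1% (Cell25). The log2 ratio of the rates was 1.09 ± 0.38, a 2.12-fold difference, and above 0 in 10 of 10 nuclei (exact sign-flip p = 0.00195, adjusted p = 0.00335). Cell38, at 0.22, lay below all others, whose lowest was 0.87. With grid positions alone the log2 ratio was 0.47, positive in 10 of 10 nuclei (exact sign-flip p = 0.00195). Windows listed by all 4 nuclei of B16F were located in the nuclei of B18F with a log2 ratio of 0.81 ± 0.36, positive in 6 of 6 nuclei (exact sign-flip p = 0.0312, the smallest that 6 nuclei can give). The 10 values share nuclei and are not fully independent.

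Windows that the other 9 nuclei never list were located in the nucleus left out at a rate of 20.8% ± 8.06, against 38.4% ± 10.1 for all windows (SD, n = 10). The log2 ratio was -0.95 ± 0.30 and below 0 in 10 of 10 nuclei, from -1.42 in Cell20 to -0.43 in Cell38 (exact sign-flip p = 0.00195, adjusted p = 0.00335). With grid positions alone it was -0.53, negative in 10 of 10 nuclei (exact sign-flip p = 0.00195). Windows that no nucleus of B16F lists had a log2 ratio of -0.36 ± 0.15 in the nuclei of B18F, negative in 6 of 6 (exact sign-flip p = 0.0312). In none of the 12 tested results did the difference between B18F and B16F pass the threshold (exact permutation over 210 splits, p from 0.148 to 0.948).

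Chromosome 14 held the highest share of members but the lowest ratio of members to the number expected from its coverage. Members made up 7.10% of its windows, followed by chromosome 3 with 5.19% and chromosome 1 with 5.16%, and the lowest shares were 3.07% on chromosome 11, 3.29% on chromosome 19 and 3.74% on chromosome 9. The never-located windows were ordered differently, with 6.05% on chromosome 3, 5.68% on chromosome 16 and 5.57% on chromosome 10, against 2.17% on chromosome 14, 2.31% on chromosome 18 and 2.38% on chromosome 11. Coverage differed between chromosomes: a nucleus located on average 44.2% of chromosome 14, the highest, and 34.8% of chromosome 13, the lowest. The share of members did not simply follow it. Chromosome 3, with 5.19% members, was located at 35.7% on average, and chromosome 11, with 3.07%, at 39.2%. Against the number expected from the coverage of the same chromosome, members were 26.7 times expected on chromosome 14, the lowest ratio of all 19, 32.0 on chromosome 11, 32.9 on chromosome 1, 97.8 on chromosome 3 and 124.2 on chromosome 13, the highest. For never-located windows chromosome 14 had the highest ratio at 10.5, chromosome 1 had 7.41, chromosome 11 had 4.27 and chromosome 19 the lowest at 3.69. The member ratio rests on small expected numbers: chromosome 14 held 865 members against 32.4 expected, and chromosome 13 held 535 against 4.31. The order of chromosomes thus depended on whether the share or the ratio to the expected number was taken.

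**Figure D3:**
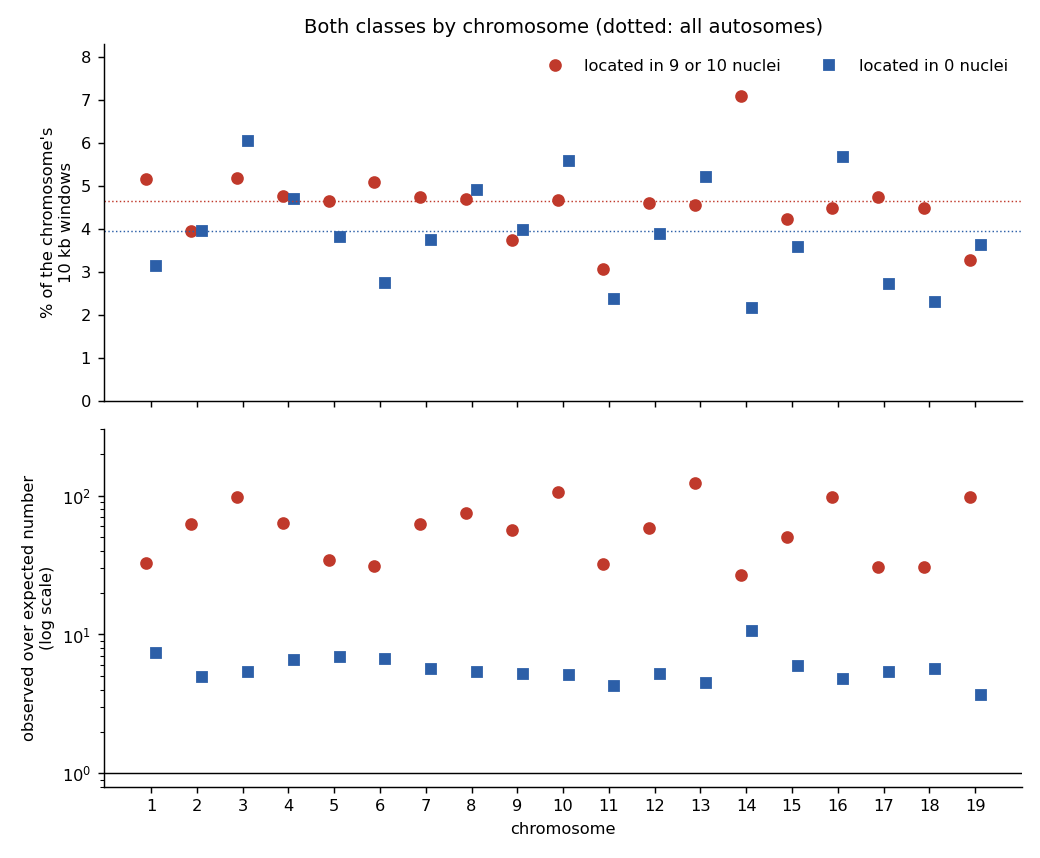
Percent of the 10 kb windows of each chromosome located in 9 or 10 nuclei (circles) and in 0 nuclei (squares) in the upper panel, with dotted lines at the values over all autosomes, 4.65% and 3.95%, and the ratio of observed to expected number from the nuclei's coverage of that chromosome in the lower panel (log scale). Chromosome 14 has the highest share of the first class (7.10%) and the lowest of the second (2.17%) in the upper panel, and the lowest ratio of the first (26.7) and the highest of the second (10.5) in the lower.

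Most windows of both classes stood alone, although both were more clustered than independent placing gives. Of the members, 75.3% had no member on either side (90.9% if placed independently), and of the never-located windows 73.9% had no window of their class beside them (92.3% if independent). The window next to a member was itself a member in 13.9% of cases, against 4.65% of all windows, and this share was 5.64% at a distance of 1000 kb. For never-located windows it was 16.3% at 10 kb and 5.48% at 1000 kb. Members occurred in 93.8% of 2413 bins of 1 Mb, with a median of 4 a bin, and never-located windows in 82.5%, with a median of 3. Runs of 5 or more were few, 35 for members with 257 windows and 59 for never-located windows with 556.

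The longest member run, chr6:114490001-114640000, held 15 windows and no annotated gene. The 10 windows on each side of it averaged 3.40 nuclei, against 9.87 inside. All 15 of its windows were listed by 8 nuclei, and 14 by Cell18 and Cell38. The positions of this 150 kb stretch were tight in some nuclei and wide in others. They ran from 5.81 to 5.93 axis units in Cell26, which was sampled from 5.61 to 6.81, and from 1.07 to 3.07 in Cell38, its whole sampled axis. The median over nuclei was 29.99% of the axis. Of its 201 entries, 153 (76.1%) lay between grid positions.

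The next 2 runs lay close together on chromosome 8. The run chr8:20260001-20410000 held 15 windows and the predicted gene Gm15319, and the run chr8:20500001-20640000 held 14 windows and the predicted genes Gm40469 and Gm21119. Their positions spread over a median of 66% and 55.2% of the axis of a nucleus. In the surrounding stretch from 19 to 22 Mb of chromosome 8, 86 of 300 windows were members and 34 were never located. The megabase that holds both runs had 53 members and 23 never-located windows, and its genes include Defb33, a beta-defensin of the family of antimicrobial peptides.

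The densest stretch of members was the centromere-proximal part of chromosome 14. From 3 to 8 Mb, 240 of 500 windows (48.0%) were members and 0 were never located, and 16 of the 35 long member runs lay on this chromosome. The megabases that begin at 3 Mb and at 4 Mb held 57 and 51 members, ranks 1 and 3 in the genome. Most of the protein-coding genes annotated there are predicted genes with Gm numbers, among them Gm3194, all of whose 5 windows were members. Pseudogenes overlapped 16.6% of the windows of this stretch, against 4.76% of all windows. When only grid positions counted, 0.20% of its 500 windows were in 9 or 10 nuclei, against 0.0545% of all windows. The whole of chromosome 14 then held 7 such windows, too few to compare the shares.

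On chromosome 5, member and never-located windows met at a sharp border. The member run chr5:14950001-15060000, with the predicted genes Gm10354 and Gm17019, ended 10 kb before the longest never-located run of all, chr5:15070001-15450000, which held 38 windows and no annotated gene. The windows within 100 kb on both sides of that run averaged 8.60 nuclei, and 15 of these 20 were members. The megabase from 15 Mb was therefore the highest for never-located windows (38) while holding 27 members, and its genes include Speer4c and Speer4d of a spermatogenesis-associated family.

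**Figure D4:**
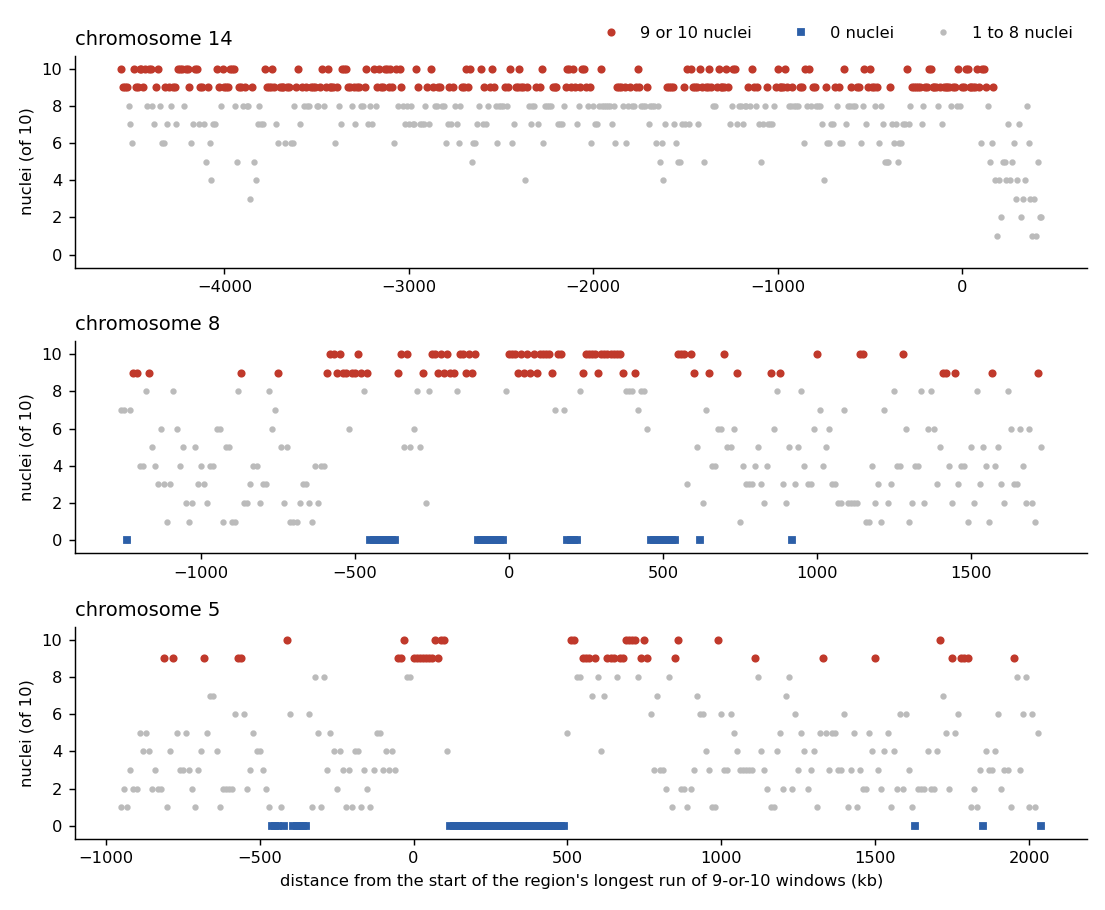
Number of nuclei (of 10) that list each 10 kb window along 3 stretches of chromosomes 14, 8 and 5, by distance in kb from the start of the longest member run of the stretch. Red points are members, blue squares windows in 0 nuclei and grey points windows in 1 to 8 nuclei. Chromosome 14 shows a dense band of members that ends shortly after the run, while on chromosomes 8 and 5 blocks of never-located windows alternate with member runs.

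The other never-located runs were mostly free of genes too. Next in length were chr10:57870001-58200000 with 33 windows and chr4:60850001-61150000 with 30, neither with an annotated gene. In runs of 5 or more never-located windows, 74.8% of windows overlapped no annotated gene, against 40.6% of all windows. Whether these stretches hold undetermined bases was not examined here. Ranks 2 and 3 among the megabases for this class began at 146 Mb on chromosome 4 and at 55 Mb on chromosome 8. The former held 30 windows, and its genes include the zinc finger genes Zfp987 and Zfp600 and the gene Rex2. The latter held 28, of which 21 formed a run with no annotated gene. Its 15 protein-coding genes are mostly predicted genes with Gm numbers. Among the others are Gpm6a, which encodes a neuronal membrane glycoprotein, and Glra3, a glycine receptor subunit.

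Members made up more of the first 10 Mb of the chromosomes than of the last. They made up 6.47% of the first 10 Mb after 3 Mb, 3.04% of the last 10 Mb and 4.63% of the windows between. The first 10 Mb exceeded the last in 19 of 19 chromosomes, and without chromosome 14 (26% of its first 10 Mb) the first 10 Mb still held 5.38%. Never-located windows made up 2.96% of the first 10 Mb, 4.12% of the last and 4.02% between, and the first end exceeded the last in 7 of 19 chromosomes. Next to the very ends the pattern was another one, since the last 1 Mb held 5.89% members and 5.05% never-located windows, both above the windows between, and the first 1 Mb held 8.84% and 4.42%. Windows found with grid positions alone, 131 over all chromosomes, were too few to compare the ends. They made up 0.0579% of the 19000 windows of the first 10 Mb and 0.0474% of the 19000 of the last.

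Over all windows, the location rate at the first end was slightly higher. It was 41.2% ± 10.71 in the first 10 Mb, against 38.3% ± 10.0 between the ends (SD, n = 10), a log2 ratio of 0.10 ± 0.05 that was positive in 10 of 10 nuclei (exact sign-flip p = 0.00195, adjusted p = 0.00335). Cell38 was lowest at 0.03 and Cell20 highest at 0.16. The ratio was 0.08 without chromosome 14 (9 of 10 nuclei, exact sign-flip p = 0.00977) and 0.07 without the members themselves. With grid positions alone it was 0.06, positive in 7 of 10 nuclei (exact sign-flip p = 0.0195), and with file 1 alone it was 0.06 and did not pass (exact sign-flip p = 0.416). With ends of 5 Mb it was 0.17. The last 10 Mb were located at 36.9% ± 9.98, a log2 ratio to the windows between of -0.06 ± 0.10 (8 of 10 nuclei below 0, exact sign-flip p = 0.0977, adjusted p = 0.107).

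Members overlapped genes less often than other windows. A protein-coding gene overlapped 27.1% of the members, 44.6% of the never-located windows and 46.6% of all windows, and the members' share was below that of all windows on 19 of 19 chromosomes. Genes of long non-coding RNAs overlapped 9.40% of the members, 10.3% of never-located windows and 13.3% of all windows. Transcript starts were in 4.17%, 7.21% and 10.0% of these 3 sets. Pseudogenes ran the other way over all members, with 5.50% of members, 3.54% of never-located windows and 4.76% of all windows. The members' share was above that of all windows on 13 chromosomes and below it on 6. The 8427 members with no member beside them had 4.66%, slightly below all windows, while members in runs of 2 to 4 had 6.63%. The higher share was not particular to members, since windows in 7 and 8 nuclei had 5.80% and 5.41%. In member runs of 5 or more windows, protein-coding genes overlapped 39.7% and pseudogenes 21.8%. The gene share was highest in windows of 4 nuclei (50.6%) and was lower at each further number of nuclei, down to 25.9% at 10. With grid positions alone, protein-coding genes overlapped 38.2% of the 131 windows.

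The location rate of all windows in protein-coding genes was 36.3% ± 10.1, against 40.2% ± 10.2 outside them (SD, n = 10). The log2 ratio was -0.16 ± 0.14 and negative in 9 of 10 nuclei (exact sign-flip p = 0.00977, adjusted p = 0.0130). Cell38 was the exception with 36.9% inside genes against 33.6% outside. The difference did not pass in batch B18F alone (-0.12, exact sign-flip p = 0.125), with grid positions alone (-0.06, exact sign-flip p = 0.148) or without the members themselves (-0.08, exact sign-flip p = 0.0781). Members were chosen by their location counts and overlap fewer genes, so leaving them out weakens this ratio by construction.

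Genes were ranked by their number of member windows, so that long genes come first, and the counts are to be read beside the 4.65% members of all windows and 2.71% of windows in protein-coding genes. Lrp1b, a large receptor of the LDL receptor family, had 15 members among its 207 windows. Cdh12 (a cadherin, 12 windows or 10.3%), Ctnna3 (an alpha-catenin, 12 of 158), Cntnap2 (a neurexin-family adhesion protein, 12 of 225), Agbl4 (a carboxypeptidase acting on tubulin, 12 of 128) and Dlg2 (a scaffold of synapses, 11 of 198) followed, all with member shares of 5.33% to 10.3%. Cntnap2 at 5.33% and Dlg2 at 5.56% were near the share of all windows. Never-located windows made up 9.38% of Agbl4, 8.59% of Dlg2, 6.90% of Cdh12 and 5.06% of Ctnna3, against 3.95% of all windows. Their share was 3.86% in Lrp1b and 1.33% in Cntnap2. Gabrg3, a GABA-A receptor subunit, had 11 of 68, and Itgbl1, an integrin beta-like protein, had 10 of 33 with 0 never-located windows. The predicted genes Gm32966 on chromosome 14 (11 of 18) and Gm38510 on chromosome 1 (10 of 16) were shorter and mostly made of members. Their windows averaged 8.61 and 8.81 nuclei, against 3.04 in Dlg2.

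The same ranking for never-located windows, which were 3.95% of all windows and 3.78% of those in protein-coding genes, again put long genes first. Robo2, a receptor for the axon guidance cue Slit, had 35 among its 156 windows, and Robo1, of the same family, had 18 (17.5%). Mdga2, a regulator of synapse adhesion, had the highest share of the 10 at 30.8% (24 of 78). Dpp10 (30 of 152), Ptprd (a receptor tyrosine phosphatase, 28 of 228), Lingo2 (26 windows, 20.5%), Macrod2 (24 of 201), Lrrc4c (23 of 133), Pcdh15 (a protocadherin of hair cells, 22 of 156) and Adgrl3 (a latrophilin receptor, 17 of 82) completed the list. Genes over 100 kb overlapped 27.8% of never-located windows, 17% of members and 25.2% of all windows.

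Of 20556 protein-coding genes, 1964 had a member window and 2441 a never-located one. All windows were members in 32 genes with at least 2 windows, of which 18 had 3 or more. Most of those 18 were predicted genes on chromosome 14, Gm3194 among them. Among the others, singled out after their values were seen, was Sp110, an interferon-induced nuclear body protein, with 5 of 5 windows. Tcp10b and Smok3b, singled out in the same way, had 3 each. Sp140, the neighbour of Sp110 in sequence family and position, had 4 of 7. Both Sp genes lie in the megabase from 85 Mb of chromosome 1, which held 38 members and 10 never-located windows. All windows were never located in 13 genes with at least 2 windows, of which Mrpl13, a mitochondrial ribosomal protein, and Vmn2r67, a vomeronasal receptor, named after their values were seen, had 3 each. A further member run, also chosen after its values were seen, lay at chr7:59710001-59780000 in Snhg14, the host transcript of tandem copies of small nucleolar RNAs in an imprinted region.

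Gene families differed in their shares, which are given beside 2.71% members and 3.78% never-located windows over all windows of protein-coding genes. Predicted genes with a Gm number had 11.3% members and 2.96% never-located windows. Among named families, members made up 3 of 15 Speer windows (20%), 9.26% of 54 MHC (H2) windows and 8.16% of 98 Nlrp windows. They also made up 8% of 200 Cyp2 windows and 7.01% of 157 Skint windows, and 14% of the Skint windows were never located. Below 2.71% lay, among others, keratin (1 of 141 windows), Serpin (3 of 172), Klr (1 of 74) and defensin genes (2 of 92). Psg (32 windows), Ceacam (34) and Mrgpr (36) had 0 members. Olfactory receptor genes (3.19% and 3.83%) and vomeronasal receptor genes (4.89% and 4.60%) were nearer to the background in both classes. Zinc finger genes of the Zfp series had 1.88% members and 4.86% never-located windows. Ribosomal protein genes had 0 members of 190 windows, histone genes 0 of 41 and pluripotency genes 0 of 58.

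The start windows of core pluripotency genes were in neither class. The window of Pou5f1, which encodes the factor Oct4, was located in 4 nuclei, that of Nanog in 6, that of Sox2 in 3, that of Klf4 in 5 and that of Zfp42 in 2. Esrrb, an orphan nuclear receptor, had starts in 2 windows, located in 8 and 5 nuclei.

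Promoters with repeated sequence were more frequent among members. Of 556 promoters in member windows, 188 (33.8%) shared a stretch of 50 bases with a promoter of another window, against 46 of 865 (5.32%) in never-located windows and 6.91% of 31396 in all. The share was 40.8% at 10 nuclei, 31.4% at 9, 18.8% at 8 and between 5.04% and 5.32% from 0 to 4 nuclei. The median GC content was 49.3% for member promoters, 50.7% for never-located and 53.0% for all promoters.

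The location rate of windows with such promoters was compared within each nucleus. Start windows with a shared promoter stretch, 1919 in number, were located at 46.3% ± 11.8, against 36.6% ± 11.2 for the 22215 other start windows (SD, n = 10). The rate of windows with a shared stretch ran from 22.8% (Cell39) through a median of 45.96% to 64.6% (Cell25), and that of the others from 18.1% (Cell39) through 38.2% to 52.6% (Cell25). The log2 ratio was 0.36 ± 0.19 and positive in 10 of 10 nuclei, from 0.05 in Cell38 to 0.75 in Cell20 (exact sign-flip p = 0.00195, adjusted p = 0.00335). This comparison was chosen after seeing the data and uses the same listings that define the members. It therefore describes the pattern among members again and is no separate support for it. Without chromosome 14 it was 0.29 (10 of 10 nuclei), and without the members themselves 0.24. With grid positions alone it was 0.13, positive in 8 of 10 nuclei (exact sign-flip p = 0.0352). Members were 8.23% of the windows with a shared stretch and 1.39% of the others.

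**Figure D5:**
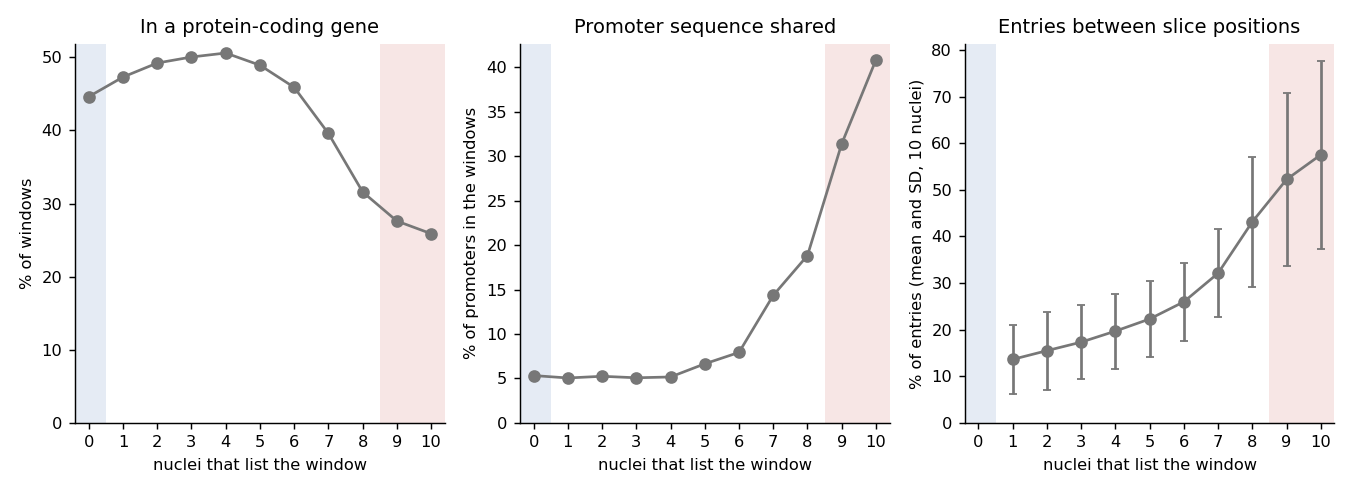
Percent of windows in a protein-coding gene, percent of promoters that share a 50-base stretch with a promoter of another window, and percent of entries between grid positions (mean and SD over 10 nuclei), each by the number of nuclei that list the window. Shading marks 0 nuclei (blue) and 9 or 10 nuclei (red). Gene overlap is lowest at 10 nuclei (25.9%), where the shared-promoter share (40.8%) and the between-grid share (57.5%) are highest.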

How the data were processed

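DNA of serial profiles from 10 nuclei was amplified and read on a HiSeq X, as the labels' protocols say. Picard (no version), Bowtie2 2.3.5, Trim Galore 0.6.4 and the mm10 build are named in the submitters' processing notes. For each nucleus the authors deposited 2 lists of located 10 kb windows, each with an axis position whose unit the file headers leave unnamed and which is no count. How reads became positions, and what the file numbers stand for, is not given in the sources used here. Read depth is therefore unknown, and precision rests on the number of nuclei.

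Windows of chromosomes 1 to 19 were counted per nucleus (Python 3.11.15, numpy 2.4.6, pandas 2.3.3), and 17 entries before 3 Mb were left out. Expected counts came from the exact Poisson-binomial distribution of the nuclei's coverages. Genes and promoters were matched by coordinate to RefSeq tables of GRCm38.p6 (20661 protein-coding genes, 31396 promoters in the windows). Exons were not used. Each nucleus gave 1 value per test: an exact two-sided sign-flip test over 1024 sign patterns, with Benjamini-Hochberg adjustment over 12 tests. Location rates were compared as log2 ratios computed here from the deposited lists. With 4 nuclei, p cannot go below 0.125. The computation was tested on simulated data with planted windows.

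Members, gene lists and most tests were chosen with earlier results of these data known. The tests of between-grid entries, identical positions, adjacent windows and shared promoters, and the removal of chromosome 14, of members or of Cell38 and Cell39 together, were chosen after seeing the data. Named genes are the 10 protein-coding genes with most windows of a class, those in its 3 longest runs, its 3 top megabases and 6 pluripotency genes. Genes and stretches named outside this rule (Sp110, Sp140 and their megabase, Tcp10b, Smok3b, Mrpl13, Vmn2r67, Gm10354, Gm17019 and Snhg14) were chosen after their values were seen. Sequences are those of the first 3 genes per class, in that order of windows, whose start lies in the class.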

Additional observations from a re-analysis of the deposited data

Results flagged for a closer look

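Cell38 lay far below the other nuclei in the rate at which it located windows frequent in the other 9, with a log2 ratio of 0.22 (40.8% of those windows against 35.2% of all). In groups of 10 such a gap is reached by chance in about 1 of 20 groups. That rate is for a single group of independent values. The flagged gaps came from several results, and the 10 values here share nuclei. Cell39 lay above the others in the share of member entries at its fullest slice position, with a difference of 15.8 percentage points, where the other 9 nuclei were between -12.1 and -0.40.

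The sex chromosomes were outside the windows described above. On chromosome X, 984 of 16789 windows (5.86%) were located in 9 or 10 nuclei, against 7.68 expected from the nuclei's coverage of that chromosome, and 1534 (9.14%) in none, against 164 expected. On chromosome Y, 189 of 8785 windows (2.15%) were in 9 or 10 nuclei, against 0.0988 expected, and 754 (8.58%) in none, against 200.4 expected.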

How the results depend on the processing

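Over 228 alternatives to 14 results no direction reversed. Outside the settings that leave out 1 nucleus, 52 of 63 tested alternatives stayed on the same side of the threshold, 5 of 11 ratios of counts stayed within 1.5 times, and 13 of 14 values without a test, nearly all of B16F alone, moved by less than 1 SD. Because the class changes with the rule, its ratio of observed to expected count moved most: 10.5 without Cell38 and Cell39, 6.23 with grid positions only and 254 for windows in 10 of 10 nuclei, while never-located windows gave 1.84 with grid positions only, 2.33 with file 1 alone and 2.78 for 0 or 1 nuclei. The gene-window log2 ratio missed the threshold in batch B18F alone (-0.12), with grid positions only (-0.0566), for windows with a gene start (-0.0643) and without members (-0.0809). Between-grid entries missed it in B18F alone (22.3 points), and the first 10 Mb with file 1 alone (0.0588). The distance from the midpoint passed without Cell38 and Cell39 (-5.62), for 10 of 10 nuclei (-5.68) and with the median as centre (-8.11). The fullest slice (-5.37) and the last 10 Mb (-0.0737) passed without Cell38 and Cell39. Grid positions alone moved these values by over 1.5 times without changing a call: frequent and never-located windows in left-out nuclei (0.47 and -0.53), the first 10 Mb (0.0624), the last 10 Mb (-0.0302), shared promoters (0.13) and the midpoint (-1.21). Never-located windows chosen in B18F gave a log2 ratio of -0.64 in B16F. The cause of these changes was not tested.

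With each nucleus left out in turn, the member ratio was 18.3 to 29.7 (8 or 9 of 9 nuclei) and the never-located ratio 3.82 to 4.99. Left-out nuclei gave log2 ratios of 0.97 to 1.14 for frequent and -0.95 to -0.85 for never-located windows. Location rates gave -0.19 to -0.13 for genes, 0.10 to 0.11 for the first 10 Mb, -0.0804 to -0.0415 for the last 10 Mb and 0.31 to 0.39 for shared promoters. Members in both files gave -9.20 to -7.62 points, between-grid entries 24.2 to 27.9, identical positions -33.5 to -28.7, adjacent windows 2.52 to 3.42, the fullest slice -5.79 to -3.42 and the midpoint -5.60 to -3.89. The last of these and the fullest slice passed only without Cell39 (exact sign-flip p = 0.0156 and p = 0.0117), and the last 10 Mb only without Cell38 (p = 0.0234).

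Not run were the location rate of GC-rich windows, as no genome was used, and the never-located class without its own windows, which leaves none. Each batch alone was given without a test for the 4 nuclei of B16F. Each sign-flip test compared values within a nucleus. Nuclei of B16F and B18F could not be paired with each other, as they carry no shared replicate numbers. The number of nuclei and the unknown read depth limit all values.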
